A study of Mus musculus with 9 samples.

Results

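The suppressors of cytokine signalling (SOCS) are a family of inhibitors that cytokine receptors switch on against themselves. The family genes Socs1, Socs2, Socs3, Socs4, Socs5, Socs6, Socs7 and Cish were followed here in donor T cells of a mouse transplantation study. Members were found by matching the Ensembl identifiers of the deposited count table to these symbols, which gave 8 genes of 29229 in the table. All 8 passed the filter on low counts, as did 19609 genes in all, and a member had between 290 and 26308 counts in a library.

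When a cytokine binds its receptor, Janus kinases (JAK) phosphorylate the receptor and then STAT transcription factors, which enter the nucleus. STAT factors switch on SOCS genes among their targets. Each SOCS protein holds an SH2 domain, which binds phosphorylated tyrosines on receptors or kinases, and a SOCS box, which recruits elongin B, elongin C and cullin 5 to mark bound proteins for degradation. SOCS1 and SOCS3 also block JAK kinases directly. In T cells, CIS, the product of Cish, and SOCS2 are best known as products of STAT5 signalling after interleukin-2 and related cytokines, SOCS1 as a brake on interferon gamma signalling and SOCS3 as a brake on receptors with the gp130 chain.

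Total RNA was sequenced from splenic T cells sorted as live CD3+ CD45.2+ cells, in 3 libraries for each of 3 groups. Naive libraries came from healthy C57BL/6 mice without a transplant. Syngeneic libraries came from B6.SJL-Ptprca Pepcb/BoyJ recipients (H-2b, CD45.1) given 9.5 Gy of radiation and 8500000 C57BL/6 splenic T cells. Allogeneic libraries came from CByJ.SJL(B6)-Ptprca/J recipients (H-2d, CD45.1) given 8 Gy and 1000000 such T cells. Both kinds of recipient also had 5000000 T-cell-depleted C57BL/6 marrow cells and were sampled 7 days after transplantation, and each transplant library pooled 2 to 4 recipients. Only female mice aged 8 to 12 weeks were used. The transplant groups thus differ in mismatch, radiation and T-cell dose together, which cannot be told apart, and the CD45.2 gate does not separate infused T cells from progeny of the marrow graft.

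The total count was 103953932 to 176678189 per library. A ribosomal RNA locus (Gm26917 and Gm42418, read as such from background knowledge) took 15.8 to 18.8% of counts in naive libraries, 19.4 to 22.4% in syngeneic and 7.87 to 17.2% in allogeneic ones, with the 17.2% in allogeneic library 1. On counts scaled to a column total of 1000000 (CPM), 7 of 8 members were lowest in allogeneic library 1 among the allogeneic libraries, and 4 of 8 were after TMM scaling. All 12 T-cell markers were detected in every group, and their summed level was 5535 to 6070 CPM in naive libraries, 3974 to 4885 CPM in syngeneic and 5093 to 5522 CPM in allogeneic ones. Markers of other spleen cells were present at levels that differed between groups. Summed over 13 measured erythroid markers, the level was 8.29 to 9.70 CPM in naive libraries, 2259 to 5829 CPM in syngeneic and 25.0 to 84.1 CPM in allogeneic ones. Summed over 12 neutrophil markers it was 4.86 to 9.28 CPM, 426 to 1416 CPM and 649 to 1152 CPM in the same order, and over 14 macrophage and monocyte markers 7.37 to 8.25, 68.6 to 254.9 and 90.6 to 179.8 CPM. Over 11 B-cell markers the sum was 16.8 to 21.05, 81.8 to 109.5 and 35.9 to 46.7 CPM, and over 10 NK-cell markers, some of which effector T cells also make, 129.5 to 131.7, 244.3 to 285.7 and 1470 to 1704 CPM. Over 7 platelet and megakaryocyte markers it was 1.95 to 3.40, 3.98 to 7.80 and 2.14 to 2.47 CPM. The ratio of Cd8a to Cd4 counts was 0.932 to 0.968 in naive libraries, 2.61 to 3.37 in syngeneic and 0.715 to 1.05 in allogeneic ones. The part of these other cells and of the CD8 to CD4 balance in the results was not tested, and in bulk RNA fewer cells of a type and less RNA per cell cannot be told apart.

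The family did not move as a block. Cish and Socs2 were highest in allogeneic T cells, Socs5 was lower in both transplant groups than in naive cells, Socs3 was lower in allogeneic than in syngeneic cells, and Socs1, Socs4, Socs6 and Socs7 did not pass the test between the transplant groups. Between allogeneic and syngeneic libraries 2 members rose and 2 fell in edgeR's quasi-likelihood test at an adjusted p under 0.05, where 24.3% of all genes tested were called higher and 20.7% lower, or 45.0% in either direction. Against naive libraries, allogeneic libraries had 3 members called higher and 1 lower (31.8% and 25.9% of all genes, 57.7% in either direction). Syngeneic libraries had 1 member called higher and 1 lower against naive (22.4% and 19.5% of all genes, 41.9% in either direction). Counts of this size among 8 genes are near or under the shares of all genes, and are not a result about the family as a whole. The median log2 fold change of the members was 0.02 in allogeneic against syngeneic libraries, beside -0.02 over all genes tested. It was -0.09 in allogeneic against naive (all genes -0.01) and 0.12 in syngeneic against naive libraries (all genes 0.01). Both comparisons with naive cells share the naive libraries.

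**Figure D1:**
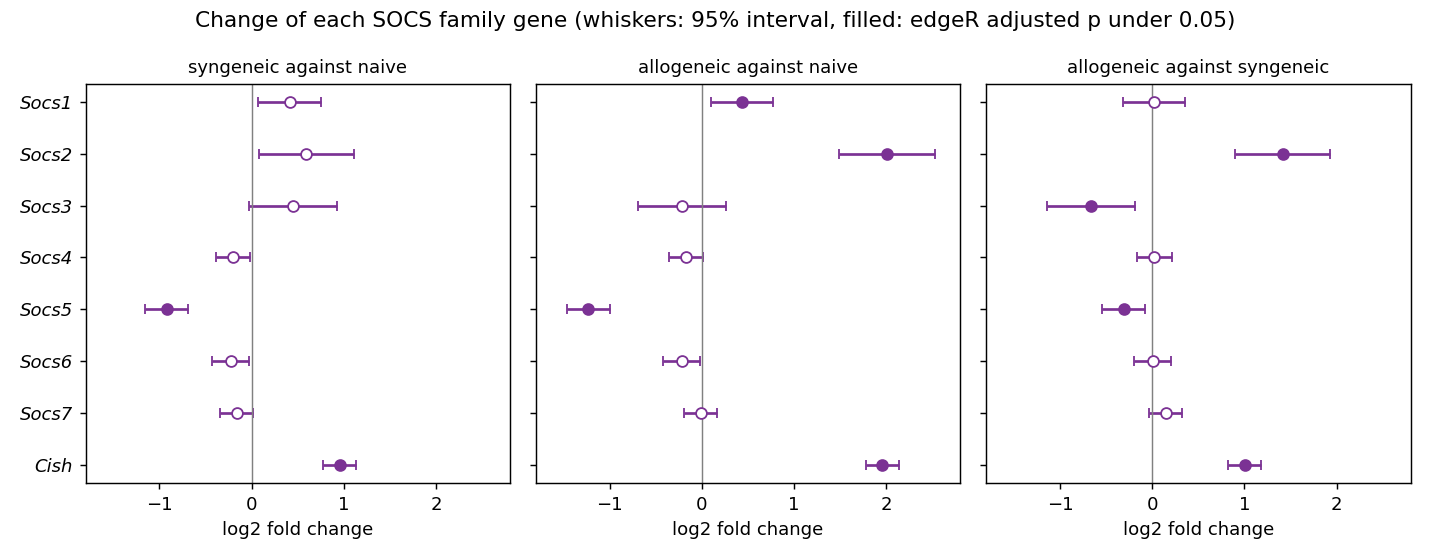
Log2 fold change (horizontal axis) of each SOCS family gene in each of the 3 comparisons, with its unadjusted 95% interval from edgeR, where filled points have an edgeR adjusted p under 0.05. Cish is filled and right of 0 in every panel, Socs5 is filled and left of 0 in every panel, and Socs2 reaches 2.01 in allogeneic against naive libraries.

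Cish (ENSMUSG00000032578, chromosome 9, 107296026 to 107302784 of GRCm38, plus strand) encodes CIS, which dampens STAT5 signalling and T-cell receptor signalling. It was at 33.5, 38.4 and 36.8 CPM in naive libraries 1, 2 and 3, at 64.6, 67.3 and 72.9 CPM in syngeneic libraries, and at 116.0, 148.9 and 142.4 CPM in allogeneic libraries. The 3 groups did not overlap, and the lowest allogeneic library stood above the highest syngeneic one. The group means were 36.2 ± 2.48 (SD, n = 3), 68.3 ± 4.23 and 135.8 ± 17.4 CPM. Cish rose 1.94-fold from naive to syngeneic cells (log2 fold change 0.95 ± 0.08 SE, adjusted p = 3.98e-06). It rose 3.87-fold from naive to allogeneic cells (1.95 ± 0.08, adjusted p = 6.93e-09). Allogeneic cells had 2.00-fold the syngeneic level (1.00 ± 0.08, adjusted p = 2.54e-06). Cish kept each of these calls in all 18 alternative settings, among them the omission of each library. Across the 18 settings the log2 fold change between the transplant groups lay between 0.94 and 1.05. Annotated genes on the opposite strand, Gm17040 and Gm17041, overlap 4.07% and 7.46% of the exons of Cish but had only 120 and 100 counts in all libraries, against 91593 for Cish.

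Promoter stretches are shown as description only, for genes chosen with their levels known. A link between these letters and the levels was not tested, and Socs2 had no window. RefSeq promoter windows (GRCm38.p6, 250 bases before the start site to 50 after it) were at hand for 4 members, Cish, Socs1, Socs3 and Socs4, and were searched for TTCNNNGAA, which reads the same on both strands. In the stretches printed 5′ to 3′ for 3 of them, capitals mark the matches.
Cish, chr9:107296409-107296678, plus strand: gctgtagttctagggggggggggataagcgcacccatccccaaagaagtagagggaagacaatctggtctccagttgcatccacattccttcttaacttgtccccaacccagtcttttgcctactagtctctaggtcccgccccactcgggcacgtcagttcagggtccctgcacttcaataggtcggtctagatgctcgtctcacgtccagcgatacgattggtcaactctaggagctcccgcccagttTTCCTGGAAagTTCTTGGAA
Socs3, chr11:117969367-117969616, minus strand: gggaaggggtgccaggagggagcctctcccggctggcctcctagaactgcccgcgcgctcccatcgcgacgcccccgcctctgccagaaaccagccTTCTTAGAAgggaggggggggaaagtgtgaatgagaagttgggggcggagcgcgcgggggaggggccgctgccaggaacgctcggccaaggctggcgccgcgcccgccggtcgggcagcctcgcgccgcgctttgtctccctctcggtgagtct
Socs1, chr16:10785537-10785786, minus strand: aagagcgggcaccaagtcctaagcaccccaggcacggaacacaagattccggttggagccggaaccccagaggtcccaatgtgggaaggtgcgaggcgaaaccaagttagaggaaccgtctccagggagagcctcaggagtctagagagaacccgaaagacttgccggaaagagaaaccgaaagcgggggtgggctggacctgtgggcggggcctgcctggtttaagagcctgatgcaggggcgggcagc
The Cish window held 2 matches, TTCCTGGAA from base 1 after the RefSeq start and TTCTTGGAA from base 12, with 2 bases between them. Of 32851 windows of 300 bases, 8.30% held at least 1 match and 0.457% held at least 2. Socs3 held 1 match, TTCTTAGAA, whose first base lies 154 bases before the start. The windows of Socs1 and Socs4 held none of these letters. GENCODE M21 places the outer ends of Cish and Socs3 upstream of these RefSeq starts, at 107296026 and 117970047, so that other annotated starts lie outside the windows.

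Socs2 (ENSMUSG00000020027, chromosome 10, 95385362 to 95417180, minus strand) encodes the inhibitor best known for restraining growth hormone signalling, and in T cells it is induced by STAT5 and STAT6. Per kilobase of merged exons it was the scarcest member in each group. In allogeneic libraries this rests on the length used. With the longest transcript as length, its mean share of the family there was 2.65%, above 2.21% for Socs5. Naive libraries had 2.63, 2.56 and 3.37 CPM, syngeneic libraries 3.90, 3.99 and 4.74 CPM, and allogeneic libraries 12.4, 13.1 and 7.50 CPM. All allogeneic libraries stood above all others, and the spread was widest among them, with library 3 the lowest. Socs2 rose 2.66-fold from syngeneic to allogeneic cells (log2 fold change 1.41 ± 0.23 SE, adjusted p = 0.000539) and 4.02-fold from naive to allogeneic cells (2.01 ± 0.24, adjusted p = 2.54e-05). These calls held in all 18 alternative settings. Syngeneic libraries were 1.51-fold the naive level and did not overlap with it, but the adjusted p was 0.0607 (log2 fold change 0.59, 95% interval 0.08 to 1.10). Socs2 was called there by DESeq2 (adjusted p = 0.0262), with the stricter filter (0.0429), in the fit of the 2 groups alone (0.0239), without naive library 3 (0.0453) and without allogeneic library 3 (0.0166).

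Socs5 (ENSMUSG00000037104, chromosome 17, 87107679 to 87137839, plus strand) encodes a member with a long N-terminal region that has been linked to the interleukin-4 and epidermal growth factor receptors. It was at 24.3, 24.0 and 26.5 CPM in naive libraries, 13.3, 12.7 and 12.5 CPM in syngeneic libraries and 9.63, 10.8 and 10.3 CPM in allogeneic libraries. The groups did not overlap, and replicates lay within a coefficient of variation of 3.15 to 5.81%. Socs5 fell by 47.2% from naive to syngeneic cells (log2 fold change -0.92 ± 0.11 SE, adjusted p = 4.10e-05) and by 57.4% from naive to allogeneic cells (-1.23 ± 0.11, adjusted p = 1.90e-06). Both calls held in all 18 alternative settings. The step from syngeneic to allogeneic cells was smaller, at -0.31 ± 0.11 (adjusted p = 0.0326). That call was lost without a filter on low counts (adjusted p = 0.0702), in the fit of the 2 groups alone (0.0649), with a replicate block (0.0501) and without naive library 1 (0.0634), syngeneic library 1 (0.113), allogeneic library 2 (0.0623) or allogeneic library 3 (0.0530). Il4ra, the interleukin-4 receptor alpha chain, was at 358.9 ± 20.6 CPM in naive libraries, 301.7 ± 32.8 in syngeneic and 134.9 ± 13.1 in allogeneic ones.

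**Figure D2:**
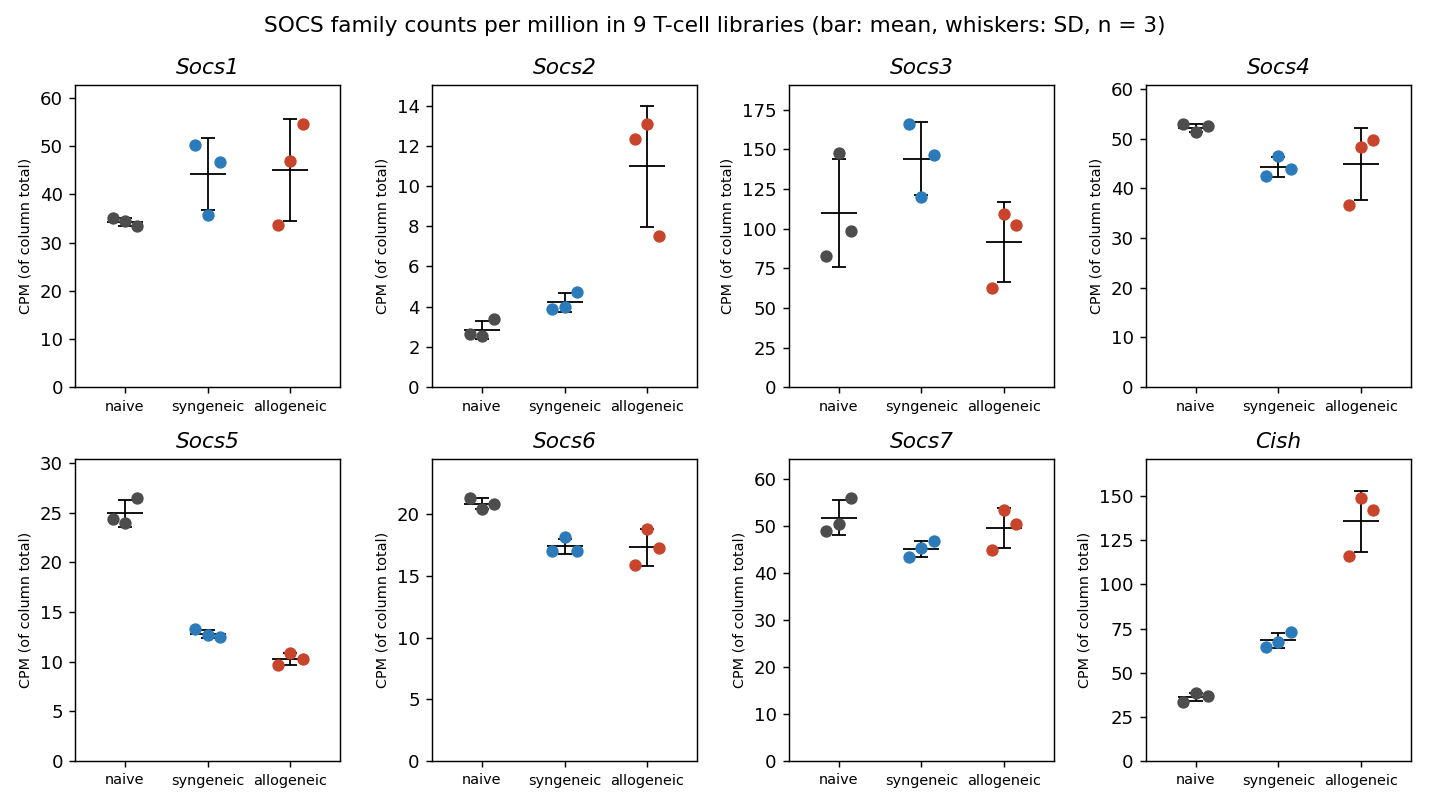
CPM of the column total (vertical axis, from 0, 1 scale per gene) of the 8 SOCS family genes in naive, syngeneic and allogeneic libraries, with 1 point per library, the mean as a horizontal line and the SD as whiskers. Cish climbs from 36.2 to 68.3 to 135.8 CPM, Socs5 steps down from 24.9 to 12.8 to 10.2 CPM, and the points of Socs1, Socs4, Socs6 and Socs7 overlap between the transplant groups.

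Socs3 (ENSMUSG00000053113, chromosome 11, 117966079 to 117970047, minus strand) encodes the inhibitor that docks on gp130, the shared chain of the interleukin-6 receptor group. Naive libraries had 82.7, 148.0 and 98.6 CPM, syngeneic libraries 165.9, 119.9 and 146.3 CPM, and allogeneic libraries 62.7, 109.2 and 102.6 CPM. Naive libraries overlapped with both transplant groups, while every allogeneic library stood below every syngeneic one. Socs3 was 36.9% lower in allogeneic than in syngeneic cells (log2 fold change -0.66 ± 0.22 SE, adjusted p = 0.0281). That call was lost without syngeneic library 1 (-0.49, adjusted p = 0.0851), syngeneic library 3 (-0.68, 0.0586) or allogeneic library 1 (-0.49, 0.103). Neither transplant group differed from naive cells by the test, at 0.44 in syngeneic (95% interval -0.03 to 0.92, adjusted p = 0.126) and -0.22 in allogeneic cells (-0.70 to 0.26, adjusted p = 0.403). Without naive library 2, the highest of its group, the syngeneic value was 0.69 (adjusted p = 0.0254) and the allogeneic one 0.03.

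Other genes of the same receptor path were read beside Socs3. Il6ra, the interleukin-6 receptor, was at 359.5 ± 2.82 CPM in naive libraries, 211.7 ± 19.5 in syngeneic and 21.4 ± 3.97 in allogeneic ones. Il6st, which encodes gp130 and was picked after its values were seen, was at 609.9 ± 13.7, 257.4 ± 15.2 and 72.9 ± 18.3 CPM, so that both receptor genes fell in each transplant group. The ligand genes Il6, Lif and Osm, also picked after their values were seen, had rising means. Il6 was at 0, 0.031 and 1.84 CPM in the same order, Lif at 1.02, 11.3 and 19.4 and Osm at 23.7, 28.1 and 35.1 CPM. From syngeneic to allogeneic cells Il6 (log2 fold change 5.95, edgeR adjusted p = 6.65e-05) and Lif (0.78, 0.0126) were called higher. Osm was not called (0.32, 0.0557). A link of these levels to Socs3 was not tested. Fos, an early gene that STAT3 and cell dissociation both induce, was at 65.8, 55.8 and 28.1 CPM in naive, 189.0, 226.1 and 157.6 CPM in syngeneic and 35.9, 37.6 and 30.3 CPM in allogeneic libraries. Fos was highest in the syngeneic group, as was the mean of Socs3, and within groups its order of libraries differed from that of Socs3. Orders of 3 libraries per group cannot decide on a shared cause, which was not tested. Neutrophils and macrophages also make Socs3, and the neutrophil marker S100a8 was at 0.07 to 0.50 CPM in naive libraries, 41.2 to 140.1 in syngeneic and 68.1 to 111.1 CPM in allogeneic ones. Their part in the Socs3 values was not tested.

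Socs1 (ENSMUSG00000038037, chromosome 16, 10782240 to 10785536, minus strand) encodes the main inhibitor of interferon gamma and common gamma chain cytokine signalling. It was tightly held in naive libraries, at 35.1, 34.4 and 33.5 CPM, and spread out in syngeneic (50.3, 35.8 and 46.7 CPM) and allogeneic libraries (33.7, 47.0 and 54.6 CPM). The coefficient of variation was 2.39% in naive libraries, 17.1% in syngeneic and 23.4% in allogeneic ones. Allogeneic cells did not pass the test against syngeneic cells, and the log2 fold change of 0.02 had a 95% interval of -0.32 to 0.36. Socs1 was called higher in allogeneic than in naive cells (0.43 ± 0.15 SE, adjusted p = 0.0316), although allogeneic library 1 lay inside the naive range on column totals. That call was lost with library sizes alone as scaling (adjusted p = 0.0650) and without naive library 1 (0.0634), naive library 2 (0.0856), naive library 3 (0.0684), allogeneic library 2 (0.0687) or allogeneic library 3 (0.229). Syngeneic cells were higher than naive cells by 0.41 ± 0.15 with an adjusted p of 0.0510, and were called with RLE scaling (0.0486), the stricter filter (0.0376), DESeq2 (0.0313) and without syngeneic library 2 (0.0102) or allogeneic library 1 (0.0315). Ifng, the gene of interferon gamma, was at 2.49 CPM in naive libraries, 10.8 CPM in syngeneic and 46.7 CPM in allogeneic ones, and Socs1 did not show a step of that order. The receptor genes of interferon gamma, picked after their values were seen, went opposite ways. Ifngr1 was at 132.9 ± 14.0, 156.3 ± 6.53 and 387.9 ± 28.8 CPM in the same order. Ifngr2 was at 47.9 ± 3.99, 18.0 ± 0.714 and 3.91 ± 0.0814 CPM. A link of these levels to Socs1 was not tested.

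Socs4, Socs6 and Socs7 were the members that varied least between groups. Socs4 (ENSMUSG00000048379, chromosome 14, 47276931 to 47296102, plus strand) is a close relative of Socs5. It was at 51.3 to 52.9 CPM in naive libraries, 42.6 to 46.6 CPM in syngeneic and 36.6 to 49.7 CPM in allogeneic ones. Socs6 (ENSMUSG00000056153, chromosome 18, 88665224 to 88927481, minus strand) and Socs7 (ENSMUSG00000038485, chromosome 11, 97362551 to 97398542, plus strand) encode members linked to insulin receptor signalling. Socs6 was at 20.4 to 21.3, 17.0 to 18.1 and 15.9 to 18.8 CPM in the same order, and Socs7 at 48.8 to 55.9, 43.3 to 46.7 and 44.9 to 53.4 CPM. Naive libraries were thus the highest for Socs4 and Socs6 with no overlap with a transplant group, and for Socs7 with no overlap with the syngeneic group. None of these 3 genes passed the edgeR test in any comparison, and at an unadjusted p under 0.05 there were 0 between the transplant groups, 1 in allogeneic and 2 in syngeneic against naive cells. Between the transplant groups the 95% intervals of the log2 fold change were -0.16 to 0.21 for Socs4, -0.19 to 0.21 for Socs6 and -0.03 to 0.33 for Socs7. Against naive cells Socs6 was -0.22 in both transplant groups (adjusted p = 0.0605 in allogeneic and 0.0696 in syngeneic cells). Socs6 was called lower in allogeneic cells in 5 of 18 alternative settings, among them DESeq2 (adjusted p = 0.0358) and library sizes alone (0.0274), and in syngeneic cells in 4 of 18. Socs4 was called lower in allogeneic cells with the stricter filter (0.0359) and without allogeneic library 3 (0.0209), and in syngeneic cells in the fit of the 2 groups alone (0.0151) and without allogeneic library 1 (0.0298) or library 3 (0.0394).

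Counted by overlap alone, 7 of 8 members differed between syngeneic and naive libraries on column-total CPM. The 3 higher members were Socs1, Socs2 and Cish and the 4 lower ones Socs4, Socs5, Socs6 and Socs7, where 25.4% and 31.1% of all genes, or 56.5% in either direction, were higher and lower without overlap. Against allogeneic libraries, naive libraries did not overlap for 5 members, of which Cish and Socs2 were higher and Socs4, Socs5 and Socs6 lower in allogeneic cells (32.5% and 32.6% of all genes, 65.1% in either direction). Between the transplant groups the members without overlap were the called ones, 2 higher and 2 lower (27.4% and 25.3% of all genes, 52.7% in either direction). With the ribosomal RNA locus left out of the total, Socs4 and Socs6 joined the lower members between the transplant groups, which made 4. With TMM scaling Socs7 joined the higher ones there. In allogeneic against naive libraries Socs7 joined the lower members without the locus, and Socs1 the higher ones with TMM scaling. The shares of all genes were not computed for these denominators, so these changes are not a result about the family.

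Levels of different members were compared as CPM per kilobase of merged exons, since the genes differ in length. In naive libraries Socs3 was the most abundant at 37.97 ± 11.8 CPM per kilobase, followed by Socs1 at 11.8 ± 0.283, Socs4 at 7.59 ± 0.120, Socs7 at 7.12 ± 0.509, Cish at 5.64 ± 0.387, Socs5 at 3.88 ± 0.210, Socs6 at 1.84 ± 0.0388 and Socs2 at 0.300 ± 0.0474. Only Socs4 and Socs7 overlapped with their neighbour in this order. Cish moved up from the fifth place in naive to the third in syngeneic libraries, at 10.6 ± 0.659 CPM per kilobase, and to the second in allogeneic libraries, at 21.2 ± 2.71. In allogeneic libraries the range of Cish overlapped with those of Socs3 above it (31.6 ± 8.70) and Socs1 below it (15.5 ± 3.63), but within each allogeneic library Cish was below Socs3 and above Socs1. Socs5 and Socs6 overlapped in allogeneic libraries, at 1.60 ± 0.0928 and 1.53 ± 0.131 CPM per kilobase.

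The summed level of the family was 76.2 ± 11.8 CPM per kilobase in naive libraries, 92.3 ± 10.0 in syngeneic and 85.9 ± 16.4 in allogeneic ones, and the ranges of the groups overlapped. The make-up differed more than the sum. Socs3 made 49.1 ± 7.40% of the family's transcripts per length in naive libraries, 53.8 ± 2.94% in syngeneic and 36.4 ± 3.60% in allogeneic ones. Cish made 7.48 ± 0.674%, 11.6 ± 1.49% and 24.8 ± 1.86% in the same order. Socs5 went from 5.19 ± 0.869% in naive to 2.18 ± 0.216% in syngeneic and 1.90 ± 0.300% in allogeneic libraries. These shares depend on the length used, and with the longest transcript in place of merged exons Cish made 8.95%, 13.9% and 28.7%. Total RNA also holds unspliced transcripts, which exon lengths do not account for.

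**Figure D3:**
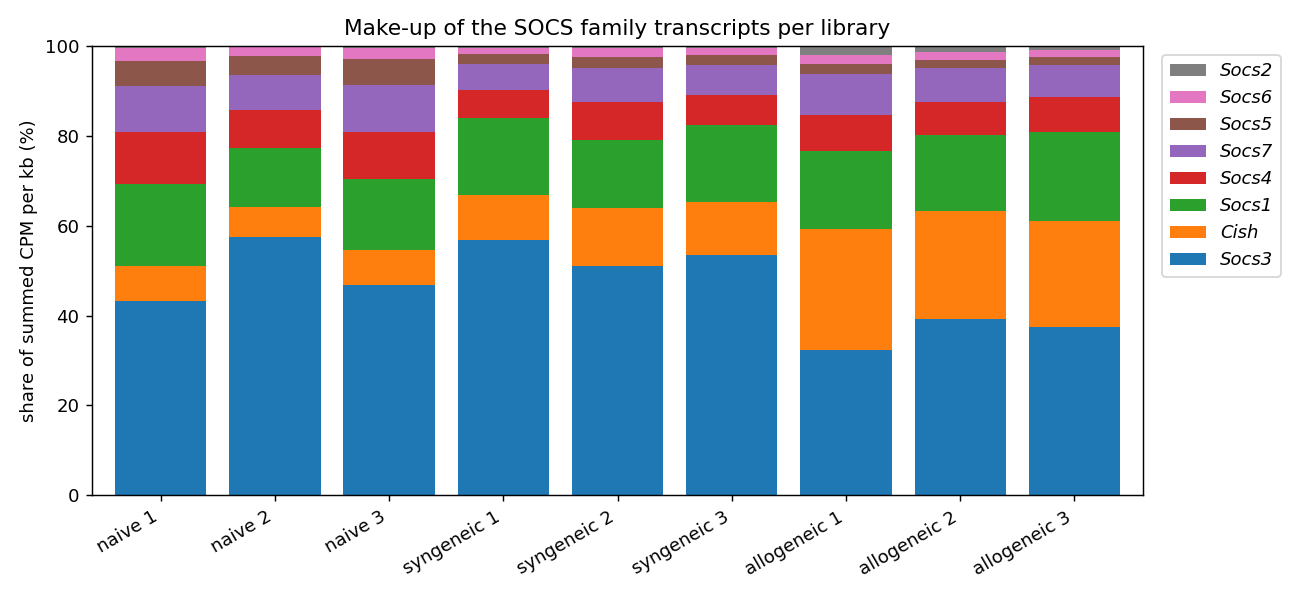
Share of each member in the summed CPM per kilobase of the 8 SOCS family genes (vertical axis, percent), with 1 stacked bar for each of the 9 libraries. The Cish segment widens from a mean of 7.48% in naive to 24.8% in allogeneic libraries while the Socs3 segment narrows to 36.4%, and Socs2 is visible only in allogeneic libraries, at a mean of 1.40%.

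The genes that act above and beside the family were read from 10 lists, which share some genes such as Il2ra, and counts of called genes stand beside the 24.3% higher and 20.7% lower of all genes between the transplant groups. Of the 4 JAK kinases, Jak2 (log2 fold change 0.69 ± 0.08), Jak3 (0.54 ± 0.14) and Tyk2 (0.46 ± 0.10) rose, and Jak1 stood at -0.10 (adjusted p = 0.420). Of the STAT genes, Stat4 (0.72 ± 0.07), Stat3 (0.58 ± 0.11), Stat5b (0.46 ± 0.09) and Stat5a (0.40 ± 0.08) rose from syngeneic to allogeneic cells. Stat6 (0.22, edgeR adjusted p = 0.0877) and Stat2 (0.02, adjusted p = 0.887) were not called. The Stat5b level did not follow that of Cish across the 3 groups, at 237.8 ± 5.50 CPM in naive libraries, 129.6 ± 5.88 in syngeneic and 177.5 ± 19.2 in allogeneic ones. Stat5a was at 97.3 ± 1.63, 74.2 ± 2.49 and 97.3 ± 11.9 CPM in the same order.

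Receptor and ligand genes were read next. Of 10 genes on the common gamma chain receptor list, 7 rose and 2 fell from syngeneic to allogeneic cells (median log2 fold change 0.44, beside -0.02 over all genes). The list also holds Crlf2 and Il13ra1, whose products pair with the Il7r and Il4ra chains instead of the common gamma chain. Crlf2, at 1.44 ± 0.11, was among the 7, and Il13ra1 was not called. Il2ra, the inducible interleukin-2 receptor chain, rose by 2.19 ± 0.11 and Il4ra fell by 1.16 on the log2 scale. Il2rb, the signalling chain for interleukin-2 and interleukin-15, was named after its values were seen and followed the order of Cish, at 351.4 ± 24.6 CPM in naive libraries, 759.2 ± 69.1 in syngeneic and 1483 ± 195 in allogeneic ones. Of 22 tested genes of other JAK-STAT receptors, 5 rose and 10 fell (median -0.39), with Il12rb2 at 3.25 ± 0.18 and Il6ra at -3.30 ± 0.12. Of 13 tested cytokine genes that signal through these receptors, 9 rose and 0 fell by edgeR (0 lower also by DESeq2 and limma-voom, 1 at an unadjusted p under 0.05, median 2.25), led by Il13, whose mean went from 0.135 CPM in the syngeneic to 8.40 CPM in the allogeneic group. Il2 did not pass the test, with a mean of 0.405 CPM in the syngeneic and 0.295 CPM in the allogeneic group. The 7 genes of the common gamma chain list called higher were 4 without allogeneic library 1, without syngeneic library 3 and in the fit of the 2 groups alone. The count of cytokine genes called lower was 1 or 2 without syngeneic library 1, allogeneic library 2 or 3 or any 1 naive library, and 1 without a filter on low counts.

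Genes known as targets of the same STAT factors were read beside the SOCS genes and moved in both directions. STAT activity was not measured, and a link between these genes and the SOCS genes was not tested. Of 12 other STAT5 targets 2, Il2ra and Cdkn1a, rose and 6 fell from syngeneic to allogeneic cells (median -0.23), and Lta, a lymphotoxin gene, fell by 1.87 on the log2 scale while Cish and Socs2 rose. Of 10 STAT3 targets 7 rose and 2 fell (median 1.07), with Maf at 3.02 ± 0.13 and Fos at -2.44 ± 0.26, while Socs3 fell. Of 11 other brakes on the pathway 6 rose and 3 fell (median 0.25), where the 3 were 1 without syngeneic library 1 or 3 or any 1 naive library, without a filter, with a replicate block and in the fit of the 2 groups alone. Ptpn11, which encodes the phosphatase SHP2, rose by 1.48 ± 0.07, and Usp18, a brake on type I interferon signalling, fell by 2.08 on the log2 scale.

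The machinery that SOCS proteins recruit was read last. Of 9 genes of the SOCS box ubiquitin ligase, 4 rose and 0 fell from syngeneic to allogeneic cells by edgeR (0 lower also by DESeq2, by limma-voom and at an unadjusted p under 0.05, median 0.27). The largest rise was that of Elob, which encodes elongin B, from 64.2 ± 5.96 to 102.5 ± 8.39 CPM. Cul5, which encodes cullin 5, and Rnf7 did not pass the edgeR test, both at -0.06 (adjusted p = 0.648 and 0.718). Of 14 tested genes of other proteins with a SOCS box, 8 rose and 3 fell (median 0.25), with Asb2 at 2.69 ± 0.25 and Spsb1 at -1.08 ± 0.20, and the 8 were 5 without syngeneic library 2 or 3. The counts against naive cells stand beside 22.4% higher and 19.5% lower of all genes in syngeneic and 31.8% and 25.9% in allogeneic cells. From naive to syngeneic cells, 1 ligase gene rose, 0 JAK genes were called by edgeR, and the STAT genes Stat5a, Stat5b and Stat6 fell. Of the JAK genes 1, Jak1, was lower at an unadjusted p under 0.05, and 1 gene was called lower by DESeq2 and by limma-voom. From naive to allogeneic cells, 6 ligase genes rose (3 without naive library 2), and 3 JAK genes rose and 1 fell. The STAT genes Stat4 (0.88) and Stat3 (0.41) rose there, and Stat5b (-0.37) and Stat6 (-0.35) fell. Without allogeneic library 1, 1 ligase gene was called lower. From naive to syngeneic cells, the common gamma chain list had 3 genes higher, Il13ra1 among them, and 2 lower. The other lists had 12 and 7 genes of other receptors, and 9 and 1 cytokine genes. Of these, the 2 lower genes of the gamma chain list were 5 without syngeneic library 1. The 7 lower genes of other receptors were 4 without syngeneic library 3, and the 9 cytokine genes were 5 in the fit of the 2 groups alone. From naive to allogeneic cells the counts were 5 and 3 for the common gamma chain list, with Crlf2 and Il13ra1 among the 5. They were 9 and 8 for other receptors, and 11 cytokine genes rose. The STAT5 targets split into 6 higher and 2 lower in syngeneic and 5 and 4 in allogeneic against naive cells, and the STAT3 targets into 2 and 4 and into 6 and 3. The 2 STAT3 targets higher in syngeneic cells were 1 without naive library 3. The JAK gene count of 0 in syngeneic against naive cells was 1 without syngeneic library 1, allogeneic library 1 or allogeneic library 3. It was also 1 with library sizes alone, with the stricter filter and in the fit of the 2 groups alone.

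**Figure D4:**
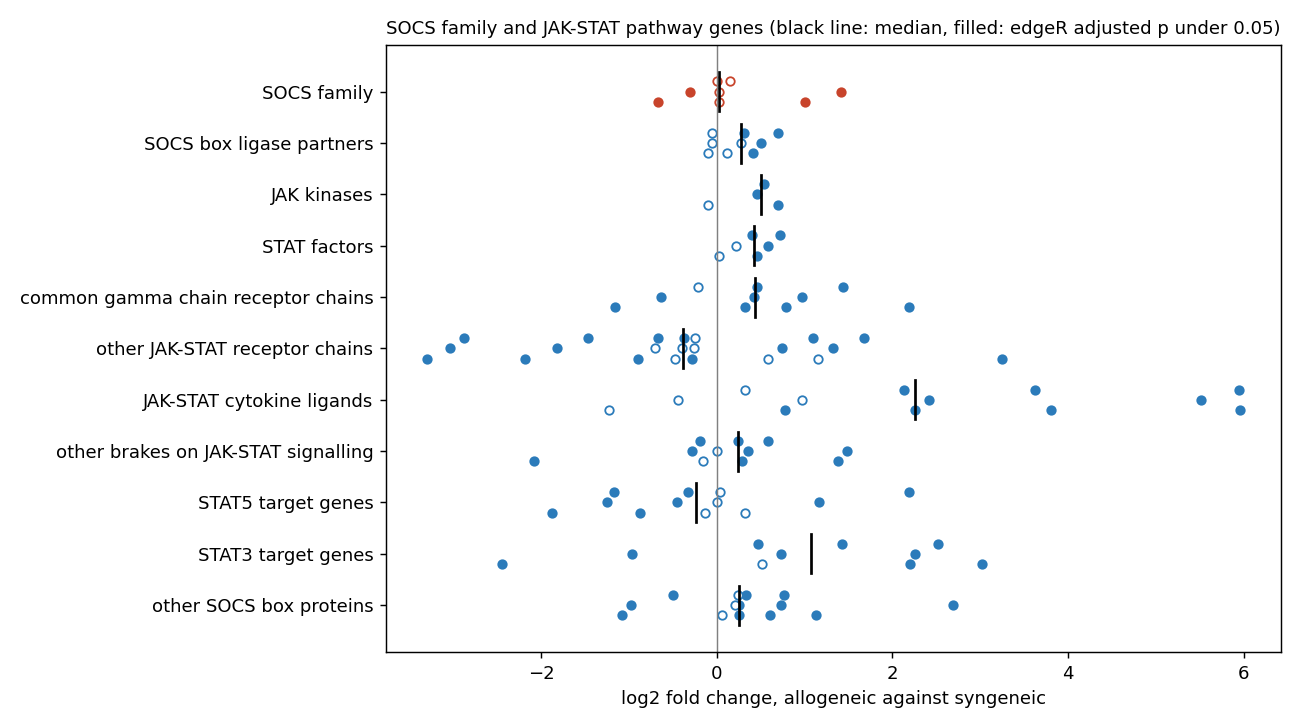
Log2 fold change from syngeneic to allogeneic libraries (horizontal axis) of each gene plotted, with 1 row for the SOCS family and for each list of JAK-STAT genes, filled points for an edgeR adjusted p under 0.05 and a black line at the median of the points plotted. The SOCS family row spans -0.66 to 1.41 around a median of 0.02, and cytokine ligand genes reach the far right with a median of 2.25.

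Genes with a pattern most like each member were ranked by Pearson r of log2 TMM-scaled CPM over the 9 libraries, as a measure of likeness among 13926 protein-coding genes. Since the libraries form 3 groups of 3, r mainly reads the order and size of the group means. Closest to Cish were Il18rap, a chain of the interleukin-18 receptor (r = 0.998), and Klrc1, the receptor NKG2A (r = 0.997), and 613 genes had an r over 0.95 with it. Il18rap was at 33.0 CPM in naive libraries, 104.9 CPM in syngeneic and 405.8 CPM in allogeneic ones. Closest to Socs5 were Zfp1 and Map3k3 (r = 0.999 and 0.998), with 481 genes over 0.95, and closest to Socs2 were Gpnmb and C1d (r = 0.997 and 0.991), with 346. Patterns like those of Socs1 (Snai3 and Sema4a, r = 0.947 and 0.928) and Socs3 (Tcf7l1 and Nin, r = 0.924 and 0.892) were rare, with no gene over 0.95. For Socs4 the closest were Dnase1l2 and Gramd1a (r = 0.984 and 0.981), for Socs6 Pnrc1 and Arhgef4 (0.979 and 0.972) and for Socs7 Bcas1 and Otud3 (0.965 and 0.930), with 11, 22 and 1 genes over 0.95.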

How the data were processed

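Values are gene-level raw counts in a single table that the authors deposited, with 9 library columns. Per the submitters' processing notes, GRCm38 was the build, and HTSeq 0.6.1, Bowtie2 2.2.1, TopHat2 2.0.13 and FastQC 0.11.3 were among the tools. For the annotation release and strand setting, the sources used here give nothing. Libraries were grouped by the transplant type in the labels. The strain tag names the syngeneic recipient strain for all 9 libraries and was not used. Members and lists were chosen with earlier results of these data known.

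Symbols, coordinates and exon lengths came from GENCODE M21, which matched 29014 of 29229 identifiers. CPM is the count divided by the column total, times 1000000. Changes were tested in edgeR 4.0.16 (R 4.3.3) with filterByExpr by group, TMM scaling, glmQLFit and then glmQLFTest, all 9 libraries in a model whose only term was group, and Benjamini-Hochberg adjustment over 19609 genes. The SE is the log2 fold change divided by the square root of F, and intervals are 95% and unadjusted. Alternatives were other scalings and filters, DESeq2 1.42.0, limma-voom (limma 3.58.1), fits of 2 groups, a replicate block and the omission of each library. The test was checked on simulated counts.

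Transplant libraries are pools of different recipients. Pooling of naive mice is not stated, and p-values measure the spread between libraries. Replicates differed by more than sampling noise (22.5 to 362 for chi-square over its degrees of freedom). Named genes were the 8 members, the called list genes with the largest rise and fall between transplant groups, JAK and STAT genes, the fixed cell markers and the 2 genes most like each member. A few others are said in the text to be picked after their values were seen. Ifng, Il2, Cdkn1a, Crlf2, Il13ra1, Cul5 and Rnf7 were also chosen so. Of the lists, 1 gene and 1 list are not reported here.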

Additional observations from a re-analysis of the deposited data

Results flagged for a closer look

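Socs3 stood on opposite sides of its naive level in the transplant groups, with log2 fold changes against naive libraries of 0.44 in syngeneic and -0.22 in allogeneic cells. The difference between these changes is the comparison of allogeneic with syngeneic libraries, -0.66 (edgeR adjusted p = 0.0281), which was lost without syngeneic library 1, syngeneic library 3 or allogeneic library 1. Neither change against naive libraries passed the test.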

How the results depend on the processing

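Across 18 alternatives, 9 of them leaving out 1 library each, the calls of Cish in every comparison, of Socs2 in allogeneic cells and of Socs5 against naive cells held. The count of all genes called stayed within 1.5 times in each comparison. Between the transplant groups 2 members were called lower, and 1 was without a filter on low counts, in the fit of the 2 groups alone and with a replicate block, as Socs5 lost its call. Without 1 library this count was 0 to 2. In allogeneic against naive libraries 1 member was called lower, and 2 were with library sizes alone, with TMM without the ribosomal RNA locus genes, by DESeq2 and in the fit of the 2 groups alone, 3 with the stricter filter (CPM of at least 1 in at least 3 libraries), and 1 to 2 without 1 library. In syngeneic against naive libraries 1 member was called higher, and 2 were with RLE size factors and in the fit of the 2 groups alone, 3 with the stricter filter and by DESeq2, and 1 to 2 without 1 library. There 1 member was called lower, and 2 were with library sizes alone and by DESeq2, 3 in the fit of the 2 groups alone, and 1 to 3 without 1 library. The cause was not tested.

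Signs turned only for members that were not called. Between the transplant groups Socs6 turned to -0.0059 with library sizes alone, -0.010 with TMM without the ribosomal RNA locus genes, -0.057 with the stricter filter, and lay between -0.027 and 0.043 without 1 library. Socs1 turned to -0.038 with the stricter filter and lay between -0.14 and 0.18 without 1 library. Socs4 turned to -0.039 with the stricter filter and lay between -0.055 and 0.11 without 1 library. In allogeneic against naive libraries Socs3 lay between -0.38 and 0.028 without 1 library (0.028 without naive library 2) and Socs7 between -0.054 and 0.069 (0.069 without naive library 3). Over 9 lists, 20 of 324 list counts moved by over 1.5 times between the transplant groups, 2 of 324 in allogeneic and 15 of 324 in syngeneic against naive libraries. These are the 9 lists whose counts between the transplant groups are given. Counts of other brakes and of other SOCS box proteins against naive libraries are included here but not printed.

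Replicate numbers did not pair the libraries. Deviations of same-numbered libraries correlated at -0.18 to 0.43, over 0.1 for 3 of 9 pairs, and a library was most like its own number in 5 of 18 cases. The replicate block changed 1 member call, that of Socs5 between the transplant groups. The denominators of overlap counts were chosen after seeing the data.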
